A study of Saccharomyces cerevisiae with 12 samples.

Results

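The comparison set budding yeast (Saccharomyces cerevisiae) cells carrying FRB-tagged NC2β against wild-type cells, with both grown in rapamycin. It rested on 4 of the 12 two-colour microarrays of the study: 2 of treated NCB2-FRB cultures and 2 of treated wild-type cultures, chosen by their labels. The wild type was HHY168 and the NCB2-FRB strain was YGP201. The third strain of the study, YGP200, carried FRB-tagged Mot1. Treated cultures had 1 µg/ml rapamycin for 60 min, and untreated cultures went through the same 60 min without it. Each group held 2 cultures (a and b) grown from independent colonies in complete synthetic medium with glucose. HHY168 is known as an anchor-away parent strain of mating type MATα, with a rapamycin-resistant tor1-1 allele, no FPR1 gene and FKBP12 fused to the ribosomal protein Rpl13A. The sources used here give no further genotype of the tagged strains. The difference between the treated strains therefore holds the effect of the tag and of the removal of NC2β together, and the drug was equal on both sides.

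NC2 (negative cofactor 2) is a dimer of NC2α, encoded by BUR6, and NC2β, encoded by NCB2. It clamps onto TBP, the TATA-binding protein and product of SPT15, on DNA and blocks the entry of TFIIA and TFIIB, although loss of NC2 lowers as well as raises transcripts. Mot1, an ATPase, pulls TBP off DNA. In the anchor-away method, rapamycin ties an FRB-tagged protein to the FKBP12 anchor on ribosomal subunits, which carry it out of the nucleus. The arrays measured transcripts, so they do not show how much NC2β had left the nucleus. The title of the study names the cooperation of Mot1 and NC2β in transcription as its subject.

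Every array set 1 culture against a common reference made from untreated wild-type RNA. Values are log2(culture/reference), in which the reference cancels between groups. A difference of 1 on this scale is a doubling. The limma fit gave each difference with its standard error (±, n = 2 arrays a side), from a spread per gene that is shared by all 12 arrays. Its p-values were adjusted by the Benjamini-Hochberg method across 6388 probes for genes. The words higher, lower, rose and fell are kept for genes whose adjusted p lay below 0.05. On 11 of the 12 arrays the median signal was 8.25 to 21.6 times the background. Treated wild-type culture a was dim, with a signal 1.61 times its background and a median of 69.7 against 412.5 to 1231 elsewhere. On that array 71.3% of probes were above the blank spots, against 95.6% to 99.5% on the others. Some results that lost their call without it are named beside their values, but the list counts are not all repeated without it. The number of arrays limits the precision.

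Transcripts differed widely between the treated strains. Of 6388 probes, 1894 were higher in treated NCB2-FRB (29.6%) and 1822 were lower (28.5%), so 58.2% were called. Most differences were small: 682 were at least 1.5-fold higher and 214 at least 1.5-fold lower, while 253 were at least 2-fold higher and 26 at least 2-fold lower. The rises reached further than the falls, with 15 called probes at least 4-fold higher and 2 at least 4-fold lower. The middle of the distribution stayed at -0.0065, and the 5th and 95th percentiles were -0.50 and 0.89. Treated wild-type cultures lay close to the reference, with an SD across genes of 0.097 and 0.13, against 0.42 and 0.46 in the treated NCB2-FRB cultures.

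Of the 3716 called probes, 3715 had both treated NCB2-FRB arrays on the same side of both treated wild-type arrays, as did 76.8% of all probes. Among 4534 probes above the blanks on all 4 arrays 2833 were called (62.5%), and among the other 1854 probes 883 were called (47.6%). The split between rises and falls depended on the scaling. With median centring of the scanner intensities, which removes no intensity-dependent bias, 504 were higher and 235 lower, so rises made up 68.2% of calls against 51.0%. Of the 189 called genes that are named by rule below, 96 lost their call with it, and not all of them are marked there. Without the dim array 1643 were higher and 1547 lower.

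Without the drug few differences passed the test. Untreated NCB2-FRB against untreated wild type, on 4 other arrays, gave 2 called probes of 6388 (0.0313%), while 248 had an unadjusted p under 0.05. The called genes were MED6, which was higher, and NCB2 itself, which was lower. Tested directly, the strain difference changed with the drug at 2700 probes (42.3%), upward at 1437 (22.5%) and downward at 1263 (19.8%). With median centring 24 and 3 were called.

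**Figure D1:**
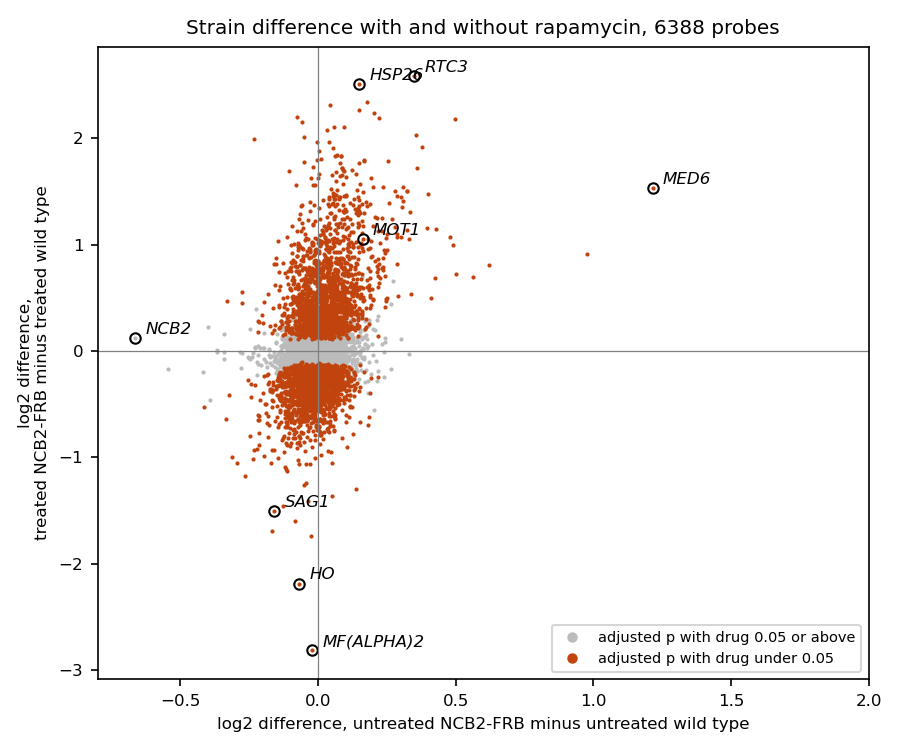
Strain difference (NCB2-FRB minus wild type, log2) with rapamycin on the vertical axis and without it on the horizontal axis, 1 point for each of 6388 probes and red where the adjusted p with the drug was under 0.05. The points spread along the vertical axis, and MED6 (1.22 without and 1.53 with the drug) and NCB2 (-0.67 and 0.12) are the genes called without the drug.

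NCB2, which encodes the tagged protein, read -0.64 and -0.67 in the 2 untreated NCB2-FRB cultures and -0.011 and 0.034 in untreated wild type. Both cultures of the tagged strain lay below both wild-type cultures, and the difference was -0.67 ± 0.050, adjusted p = 0.000294. With the drug NCB2 read 0.16 and 0.075 in NCB2-FRB and 0.0024 and -0.010 in wild type, a difference of 0.12 ± 0.050, adjusted p = 0.0641. The strains thus lay closer with the drug than without it, and the change of the strain difference was 0.78 ± 0.071, adjusted p = 2.41e-05. The treated difference passed the test without NCB2-FRB culture b (adjusted p = 0.0454) and with dye orientation as a replicate block (adjusted p = 0.0459), and over all settings its adjusted p reached 0.884. A probe for a tagged gene reads the transcript with its tag, and no probe here checks the loss of the protein.

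TBP and several of its regulators were higher, in a comparison where 29.6% of all probes rose and 28.5% fell. Of the 12 genes in that group 6 rose and 2 fell (1 without the dim array), with a median of 0.18 against -0.0065 over all probes. MOT1 read 1.20 and 1.06 in treated NCB2-FRB and 0.0042 and 0.15 in treated wild type, a 2.08-fold rise (1.05 ± 0.072, adjusted p = 1.09e-06). The cultures did not overlap. SPT15 read 0.43 and 0.41 against -0.050 and -0.076, a rise of 0.48 ± 0.068, adjusted p = 0.000137. BUR6, the partner subunit, read 0.23 and 0.27 against -0.0046 and 0.010, a rise of 0.25 ± 0.044, adjusted p = 0.000697, with a signal above the blanks on 3 of 4 arrays. These genes had untreated differences of 0.16, 0.072 and -0.044, none of them called, and for each the change with the drug passed the test (0.89, 0.41 and 0.29). SPT15 and BUR6 lost their calls with median centring. The MOT1 rise was not confined to the strain with untagged Mot1. In Mot1-FRB cultures MOT1 read 1.55 and 1.72 with the drug and 0.74 and 0.72 without it.

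BDF1 and BDF2 encode bromodomain proteins that bind acetylated histones and TFIID. BDF2 read 1.63 and 1.73 in treated NCB2-FRB and -0.044 and 0.090 in treated wild type, a 3.15-fold rise (1.65 ± 0.061, adjusted p = 5.48e-08). BDF1 read 0.75 and 0.81 against -0.012 and 0.018 and rose by 0.78 ± 0.056, adjusted p = 1.47e-06. SPT8, which brings TBP to SAGA, was higher by 0.26, and its partner SPT3 lower (-0.21), a call lost without the dim array (adjusted p = 0.0594). TOA1, the large TFIIA subunit, had a difference of -0.18 ± 0.044, adjusted p = 0.00483, which took the opposite sign (0.067) with median centring and lost its call with normexp and global loess or with external control centring. The remaining members BRF1 (-0.15), TOA2 (-0.098) and TAF1 (0.070) were not called.

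More coactivator subunit genes fell than rose. Of 18 SAGA probes 2 rose and 10 fell (median -0.14), of 14 TFIID probes 0 rose and 6 fell (-0.063), and of 25 Mediator probes 5 rose and 10 fell (-0.067). The 10 of 18 falls in SAGA compare with 28.5% of all probes, with 6 falls without the dim array, and median centring called 0 falls in SAGA and 0 in TFIID. Normexp with global loess called 2 rises and 5 falls in Mediator. Among 17 general initiation factor probes 3 rose (17.65%) and 5 fell (29.4%), against 29.6% and 28.5% of all probes, so only the share that fell was close. SGF11, of the SAGA deubiquitinase module, read 0.93 and 0.87 against 0.019 and 0.075 in wild type and rose by 0.85 ± 0.048, adjusted p = 3.85e-07. TAF6, shared by SAGA and TFIID, read -0.46 and -0.63 against 0.041 and -0.029 and fell by 0.55 (adjusted p = 3.81e-05), a call lost with median centring. In Mediator, the head subunit gene SRB2 fell from 0.0075 and 0.035 to -0.74 and -0.66 (-0.72 ± 0.045, adjusted p = 5.62e-07), and MED7 had -0.59 ± 0.052, adjusted p = 5.37e-06. The general factor gene SUA7, for TFIIB, was higher by 0.29 ± 0.049, adjusted p = 0.000504, and SSL1, for TFIIH, was lower (-0.42 ± 0.070, adjusted p = 0.000421), a call lost with all 3 normalizations of the scanner intensities.

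MED6, a Mediator head subunit gene, was the one transcript called in the same direction with and without the drug. It read 1.23 and 1.38 in untreated NCB2-FRB and 0.066 and 0.11 in untreated wild type (1.22 ± 0.079, adjusted p = 0.000137). After the drug it read 1.59 and 1.57 and 0.056 and 0.050, a 2.89-fold difference (1.53 ± 0.079, adjusted p = 2.51e-07). The increase of the strain difference with the drug was 0.31 ± 0.11, adjusted p = 0.0454. Untreated Mot1-FRB cultures read 1.20 and 1.45 for MED6, above the wild type as in NCB2-FRB.

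More genes for RNA polymerase subunits fell than rose. Of 11 RNA polymerase II probes 0 rose and 7 fell (median -0.19), and of 23 RNA polymerase I and III probes 1 rose and 14 fell (-0.24). Over all probes 29.6% rose and 28.5% fell. RPB8, a subunit common to all 3 enzymes, read -0.28 and -0.34 against 0.11 and 0.13 in wild type (-0.43 ± 0.058, adjusted p = 9.64e-05). The RPB8 call was lost with normexp and global loess and with median centring. RPC37, of RNA polymerase III, was the exception and read 0.81 and 0.68 against 0.13 and 0.14, a rise of 0.62 ± 0.063, adjusted p = 1.49e-05. It had no called difference in treated Mot1-FRB (0.080), and the 2 treated tagged strains differed by 0.54 ± 0.063, adjusted p = 0.000318. With median centring 1 RNA polymerase II fall and 0 others were called, and with normexp and global loess 2 and 6. The median of each list was below 0 in every scaling tried. Of 37 chromatin remodelling probes 7 rose and 18 fell, and with normexp and global loess 3 and 10 did. Among them SNF6, of SWI/SNF, fell from 0.10 and 0.10 to -0.60 and -0.69 (-0.75 ± 0.051, adjusted p = 1.02e-06), and ITC1, of ISW2, rose by 0.53 ± 0.046, adjusted p = 4.88e-06.

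General stress genes formed the list with the highest median. Of 48 probes for environmental stress genes, which depend on the transcription factors Msn2 and Msn4, 42 rose and 0 fell, against 29.6% and 28.5% of all probes. Their median was 1.29, and 7 of the 15 highest genes that met the naming rule, which leaves out probes dim on any of the 4 arrays, saturated on both arrays of a group or without a symbol, belonged to them. Between the arrays with Cy3-labelled cultures (a) it was 1.00, and between those with Cy5-labelled cultures (b) 1.63. HSP26, a small chaperone, read 2.15 and 2.89 in treated NCB2-FRB and 0.073 and -0.056 in treated wild type, a 5.70-fold rise (2.51 ± 0.25, adjusted p = 1.44e-05). RTC3 read 1.92 and 2.38 against -0.20 and -0.67, and its difference was the highest of the named genes at 2.59 ± 0.21, adjusted p = 3.55e-06, or 6.01-fold. The groups did not overlap for either gene, although the 2 cultures of a group differed by up to 0.74. HSP42, another small chaperone (2.19 ± 0.15, adjusted p = 1e-06), the membrane-stabilising protein gene HSP12 (1.99 ± 0.28, adjusted p = 0.000129) and GPD1, for glycerol synthesis (2.18 ± 0.19, adjusted p = 5.22e-06), rose too. In each of the other loess or control scalings 42 members were called higher, and with median centring 34 were.

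Most storage sugar and redox genes rose too. Of 20 trehalose and glycogen probes 16 rose and 1 fell (median 0.78), against 29.6% and 28.5% of all probes. TSL1, of the trehalose synthase complex, read 1.23 and 1.62 against -0.36 and -0.38 (1.79 ± 0.14, adjusted p = 2.49e-06), and the trehalase gene NTH1 rose by 1.51 ± 0.090, adjusted p = 4.76e-07. Genes for making and for breaking down trehalose were thus both higher. Of 25 redox and peroxide defence probes 17 rose and 1 fell (0.53). SOD2, the mitochondrial superoxide dismutase, read 1.43 and 1.78 against -0.20 and -0.13 (1.77 ± 0.096, adjusted p = 2.95e-07), and CTT1, the cytosolic catalase, rose by 1.45 ± 0.22, adjusted p = 0.000258. Multidrug resistance genes had 11 higher and 2 lower of 21, with the efflux pump gene PDR5 at 1.47 ± 0.15, adjusted p = 1.38e-05.

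Of 25 probes for chaperones that depend on heat shock factor 15 rose and 3 fell, against 29.6% and 28.5% of all probes. Their median was 0.26. The disaggregase gene HSP104 read 0.83 and 0.93 against -0.18 and -0.58 (1.26 ± 0.14, adjusted p = 3.09e-05), and the inducible Hsp70 gene SSA4 read 0.90 and 1.31 against -0.0090 and -0.096 (1.16 ± 0.18, adjusted p = 0.000246). For both genes the NCB2-FRB cultures lay above the wild-type cultures. With median centring 7 were called higher. Of 32 proteasome probes 11 rose and 2 fell (median 0.067), so the share that rose was near that of all probes. RPN1, of the regulatory particle, was higher by 0.57 ± 0.076, adjusted p = 9.73e-05.

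**Figure D2:**
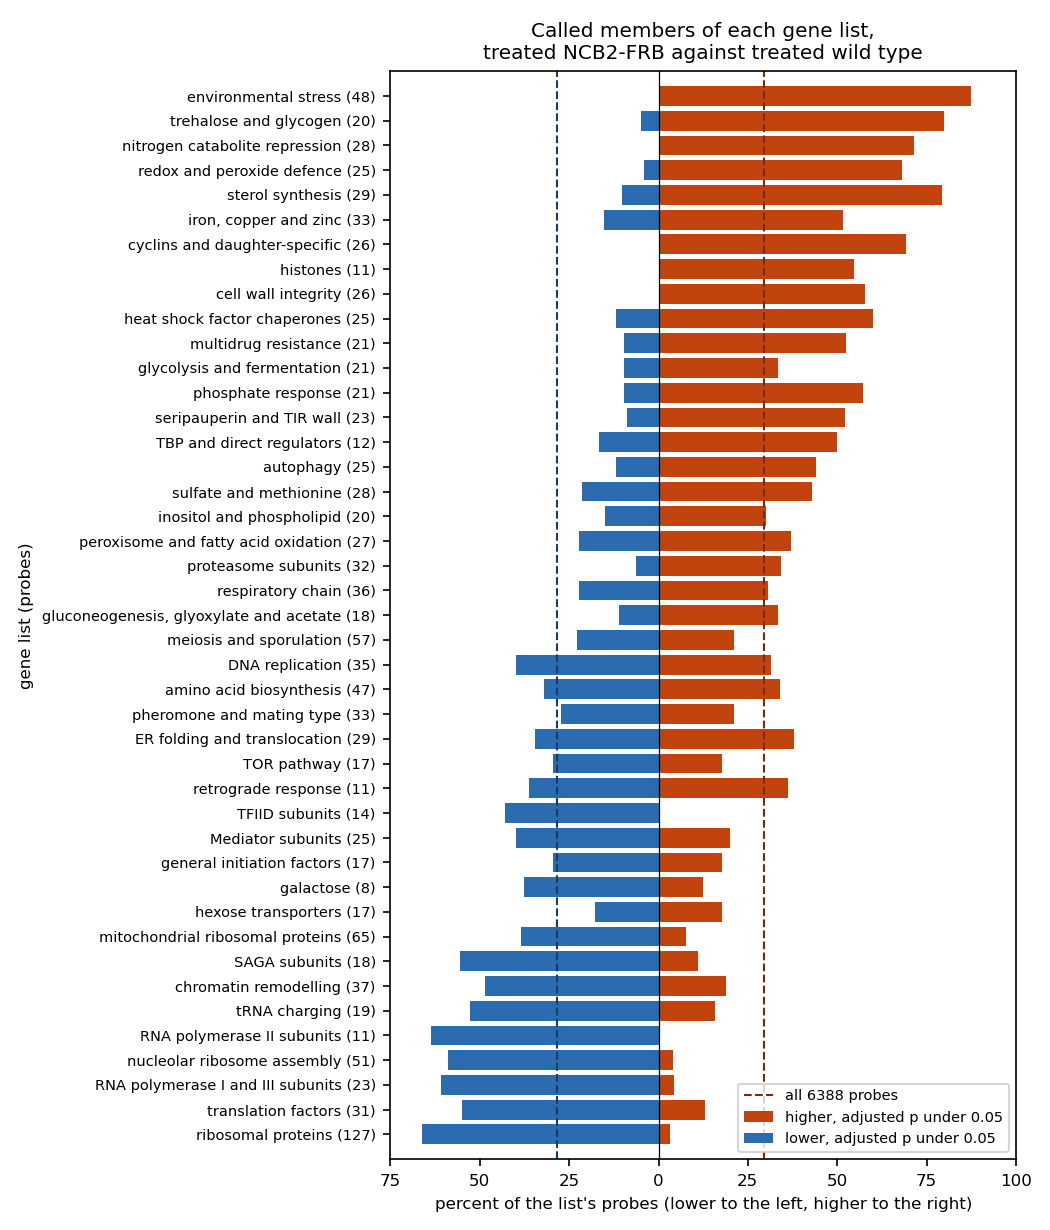
Percent of each list's probes called higher (red, right) or lower (blue, left) in treated NCB2-FRB than in treated wild type, with the number of probes in brackets, ordered by the list's median difference. Dashed lines mark 29.6% higher and 28.5% lower over all probes. Environmental stress (42 of 48 higher) and ribosomal proteins (84 of 127 lower) stand at the ends.

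Most nitrogen catabolite genes and some sulfate genes rose. The nitrogen catabolite list holds genes that Gln3 and Gat1 switch on when good nitrogen sources run out, and rapamycin turns them on in cells with a drug-sensitive Tor kinase. Of 28 probes 20 rose and 0 fell (median 0.62), against 29.6% and 28.5% of all probes. CAR2, ornithine aminotransferase, read 2.17 and 2.31 in treated NCB2-FRB and -0.12 and -0.036 in treated wild type, a 4.97-fold rise (2.31 ± 0.076, adjusted p = 2.88e-08). PUT1, proline oxidase, read 1.86 and 2.12 against 0.20 and 0.38 (1.70 ± 0.098, adjusted p = 4.27e-07), and DAL3, for allantoin use, read 1.60 and 1.45 against -0.21 and 0.35 (1.46 ± 0.14, adjusted p = 1.06e-05). Wild-type cultures on the same drug stayed near the reference for CAR2 in both arrays. GLN3 itself fell by 0.46 (adjusted p = 1.18e-05). Of 28 sulfate and methionine probes 12 rose and 6 fell (median 0.15), and normexp with global loess called 1 fall. Median centring called 2 rises and 0 falls, and without the dim array the median was 0.12. MET3, ATP sulfurylase, read 1.96 and 2.07 against -0.10 and -0.022, a 4.22-fold rise (2.08 ± 0.090, adjusted p = 9.85e-08), and MET14, APS kinase, read 1.50 and 1.64 against 0.059 and 0.12 (1.49 ± 0.071, adjusted p = 1.58e-07). CYS4 read -0.43 and -0.55 against 0.084 and -0.011 (-0.53 ± 0.060, adjusted p = 3.37e-05), but it took the opposite sign in the 3 normalizations of the scanner intensities (0.096, 0.031 and 0.019).

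Of 47 amino acid probes 16 rose and 15 fell, near the 29.6% and 28.5% of all probes. LYS9 and LYS12, of lysine synthesis, rose by 1.04 and 0.93, and ARG2, the first step to ornithine, fell by 0.76 (adjusted p = 1.17e-06). The branched-chain aminotransferase gene BAT1 read -0.70 and -0.76 against 0.052 and -0.026 (-0.74 ± 0.062, adjusted p = 3.87e-06), a call lost with median centring. Among genes outside these lists, the glycine decarboxylase gene GCV1 read 2.08 and 2.22 against 0.15 and 0.22 (1.96 ± 0.084, adjusted p = 9.43e-08) and ARO10, phenylpyruvate decarboxylase, 1.51 and 1.49 against -0.075 and -0.76 (1.92 ± 0.27, adjusted p = 0.000132). The histidine gene HIS6, the dihydrofolate reductase gene DFR1 and BNA1, of NAD synthesis, fell by 1.03, 1.06 and 0.93.

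Most sterol synthesis genes rose, with 23 of 29 probes higher and 3 lower (median 0.48), against 29.6% and 28.5% of all probes. ERG12, mevalonate kinase, read 1.06 and 0.99 against -0.015 and 0.031 (1.02 ± 0.052, adjusted p = 2.42e-07), ERG3 rose by 1.17 ± 0.061, adjusted p = 2.55e-07 and the scaffold gene ERG28 by 1.45 ± 0.10, adjusted p = 1.3e-06. The 3 that fell were the sterol importer gene AUS1 (-0.49) and the regulators ECM22 (-0.35) and UPC2 (-0.16), named after their values were seen, so no gene encoding an enzyme of the pathway was among them, and UPC2 lost its call without the dim array (adjusted p = 0.0515). Median centring called 10 rises and 1 fall. Of 20 phospholipid and inositol probes 6 rose and 3 fell, so the share that rose (30%) was near that of all probes. PSD1, phosphatidylserine decarboxylase, was higher by 0.88 ± 0.075, adjusted p = 4.47e-06. CHO2 (-0.29 ± 0.083, adjusted p = 0.0117) took the opposite sign with print-tip loess (0.053) and median centring (0.20), and it lost its call without either treated culture a, the dim array among them. Without that array 1 of the list's 3 falls was called. Of 21 phosphate response probes 12 rose and 2 fell (0.23). They included PHM8, a phosphatase gene, at 2.23 and 2.49 against -0.0076 and 0.045 (2.34 ± 0.093, adjusted p = 7.61e-08), and the polyphosphate synthesis gene VTC1 at 0.77 and 0.88 against -0.14 and -0.12 (0.95 ± 0.059, adjusted p = 5.62e-07).

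Of 36 respiratory chain probes 11 rose and 8 fell, near the 29.6% and 28.5% of all probes, and normexp with global loess called 13 and 4. In that list were CYC7, the stress form of cytochrome c, at 1.70 ± 0.14, adjusted p = 3.35e-06 and ATP5, of the ATP synthase, at -0.70 ± 0.069, adjusted p = 1.28e-05. ATP5 lost its call with median centring. Of 17 hexose transporter and sensor probes 3 rose and 3 fell (5 without the dim array), and of 18 gluconeogenesis and acetate probes 6 rose and 2 fell. HXT1, the low-affinity glucose transporter, read -0.50 and -0.60 against 0.13 and 0.10 (-0.67 ± 0.073, adjusted p = 2.54e-05), a call lost with median centring. In glycolysis 10 of 21 probes were saturated on both arrays of a group. Of the other 11, 6 rose and 1 fell, and over all 21 normexp with global loess called 13 rises and 0 falls. GLK1, glucokinase, read 0.93 and 1.54 against -0.23 and -0.30 (1.50 ± 0.18, adjusted p = 4.23e-05). For 8 galactose genes 1 rose and 3 fell: the rise was PGM2 (1.39 ± 0.17, adjusted p = 5.07e-05), which also serves glycogen synthesis, and the regulators GAL4 (-0.60), GAL3 (-0.35) and GAL80 (-0.26) fell. The structural genes GAL1 (-0.055), GAL7 (0.016) and GAL10 (-0.042) were not called in these glucose-grown cells, and GAL7 was above the blanks on 0 and GAL10 on 1 of the 4 arrays. Metal genes had 17 rises and 5 falls of 33 (2 falls without the dim array). FET3, the iron multicopper oxidase, read 0.10 and 1.31 in treated NCB2-FRB against -0.17 and -0.25, a spread that gave 0.92 ± 0.28, adjusted p = 0.0165 and a call lost without either wild-type array. Without the drug FET3 already read 0.93 and 0.92 in NCB2-FRB against -0.037 and -0.065 (0.98 ± 0.28, adjusted p = 0.999), and the change with the drug was -0.061.

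In each of 4 protein synthesis lists more than 50% of the probes fell. Of 127 ribosomal protein probes 4 rose and 84 fell (median -0.42), of 51 nucleolar ribosome assembly probes 2 rose and 30 fell (-0.22), of 31 translation factor probes 4 rose and 17 fell (-0.26) and of 19 tRNA charging probes 3 rose and 10 fell (-0.18). These compare with 28.5% of all probes that fell. The ribosomal protein probes are among the brightest, and 83 of the 127 were saturated on both arrays of a treated group in some channel. Of the other 44, 1 rose and 36 fell, with a median of -0.44. RPS9A, which was not saturated, read -1.02 and -0.99 against 0.040 and 0.078, a 2.09-fold fall (-1.06 ± 0.052, adjusted p = 1.74e-07). RPS11B read -0.96 and -0.94 against 0.030 and 0.29 (-1.11 ± 0.080, adjusted p = 1.57e-06), but it was saturated in a channel on 2 of 4 arrays, and its near-identical copy RPS11A may share its signal. RPL13A, whose product is the FKBP12 anchor of the method, read -0.50 and -0.36 against -0.037 and 0.098 (-0.46 ± 0.064, adjusted p = 0.000121), with RPL13B as a near-identical copy.

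The falls in protein synthesis genes depended on the normalization. Starting from the scanner intensities, normexp with global loess called 49 ribosomal protein falls and print-tip loess 57. The former called 7 translation factor and 11 mitochondrial ribosomal protein falls. Without the dim array 72 ribosomal protein probes fell and 2 rose. With median centring 1 ribosomal protein fall was called and the median was -0.024, while the tRNA charging median was 0.021. The assembly gene UTP14 read -0.64 and -0.74 against 0.086 and 0.16 (-0.82 ± 0.058, adjusted p = 1.34e-06) and kept its call in every setting, as did MPP10 (-0.66) and NOP56 (-0.63). Of 51 assembly probes 4 were called lower with median centring. Mitochondrial ribosomal protein genes had 5 rises (7.7%) and 25 falls (38.5%) of 65 (median -0.11), against 29.6% and 28.5% of all probes. Median centring called 1 fall among them. RSM26 read -0.58 and -0.57 against -0.024 and 0.013 (-0.57 ± 0.057, adjusted p = 1.44e-05), a call lost with normexp and global loess.

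Of 26 cyclin and daughter-specific probes 18 rose and 0 fell, against 29.6% and 28.5% of all probes. Their median was 0.39 and lay above 0 in every scaling, although median centring called 6 rises. The S-phase cyclin gene CLB6 read 0.88 and 0.97 against -0.13 and -0.16 (1.07 ± 0.052, adjusted p = 1.72e-07), and the daughter-specific gene DSE3 read 0.95 and 1.03 against 0.027 and 0.15 (0.90 ± 0.055, adjusted p = 5.62e-07). SIC1, which encodes an inhibitor of the kinase that these cyclins activate, read 0.96 and 0.80 against -0.0034 and 0.035 (0.87 ± 0.073, adjusted p = 4.13e-06). Histone genes had 6 rises and 0 falls of 11, among them HHT1, for histone H3 (0.46 ± 0.075, adjusted p = 0.000409), and HTZ1, for the variant H2A.Z (0.42 ± 0.056, adjusted p = 0.000101), while HTA1 (0.069) and HTB1 (-0.10) were not called. Of 35 replication probes 11 rose and 14 fell (8 with normexp and global loess), and the ribonucleotide reductase gene RNR4 was higher by 0.97 ± 0.064, adjusted p = 8.71e-07. Cell wall integrity genes had 15 rises and 0 falls of 26 (median 0.27). GSC2, a glucan synthase, read 1.21 and 1.71 against -0.072 and -0.0099 (1.50 ± 0.15, adjusted p = 1.29e-05), and SLT2, the MAP kinase of that pathway, 1.22 and 1.14 against 0.14 and 0.16 (1.03 ± 0.072, adjusted p = 1.22e-06).

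The largest falls among the named genes were in genes of mating and mating-type switching. MF(ALPHA)2, a gene for the α-factor pheromone, read -2.41 and -2.32 in treated NCB2-FRB and 0.67 and 0.23 in treated wild type, a 7.03-fold fall (-2.81 ± 0.17, adjusted p = 5.08e-07). HO, the endonuclease gene of mating-type switching, read -2.07 and -1.96 against 0.23 and 0.11, a 4.55-fold fall (-2.18 ± 0.059, adjusted p = 8.76e-09). SAG1, the α-agglutinin of the cell surface, read -1.17 and -0.98 against 0.40 and 0.45, a 2.84-fold fall (-1.50 ± 0.085, adjusted p = 3.85e-07). Both wild-type cultures were above the reference and both NCB2-FRB cultures far below it for all 3 genes. With median centring SAG1 had a difference of -1.25 and an adjusted p of 0.0509, and over all settings it ran from -1.61 to -1.25.

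Other genes of the mating pathway did not share this. Of 33 pheromone and mating-type probes 7 rose (21.2%) and 9 fell (27.3%), against 29.6% and 28.5% of all probes, and the median was -0.029 (0.096 with median centring). STE3, the receptor that marks MATα cells, read 0.047 and 0.028 in treated NCB2-FRB and 0.13 and 0.0081 in treated wild type (-0.029 ± 0.066, adjusted p = 0.732). The major pheromone gene MF(ALPHA)1 had -0.55 ± 0.26 (adjusted p = 0.0977) and was saturated on 3 of 4 arrays. It resembles MF(ALPHA)2 in sequence, and the probes may share signal. Genes specific to MATa cells ranged from -0.24 (BAR1) to 0.035 (STE6), with BAR1 and MFA2 (-0.15) called, MFA2 not without the dim array (adjusted p = 0.115), and STE2, STE6, MFA1 and AGA2 not. FUS3, the mating MAP kinase, rose by 0.47 ± 0.075, adjusted p = 0.000356, a call lost with median centring.

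**Figure D3:**
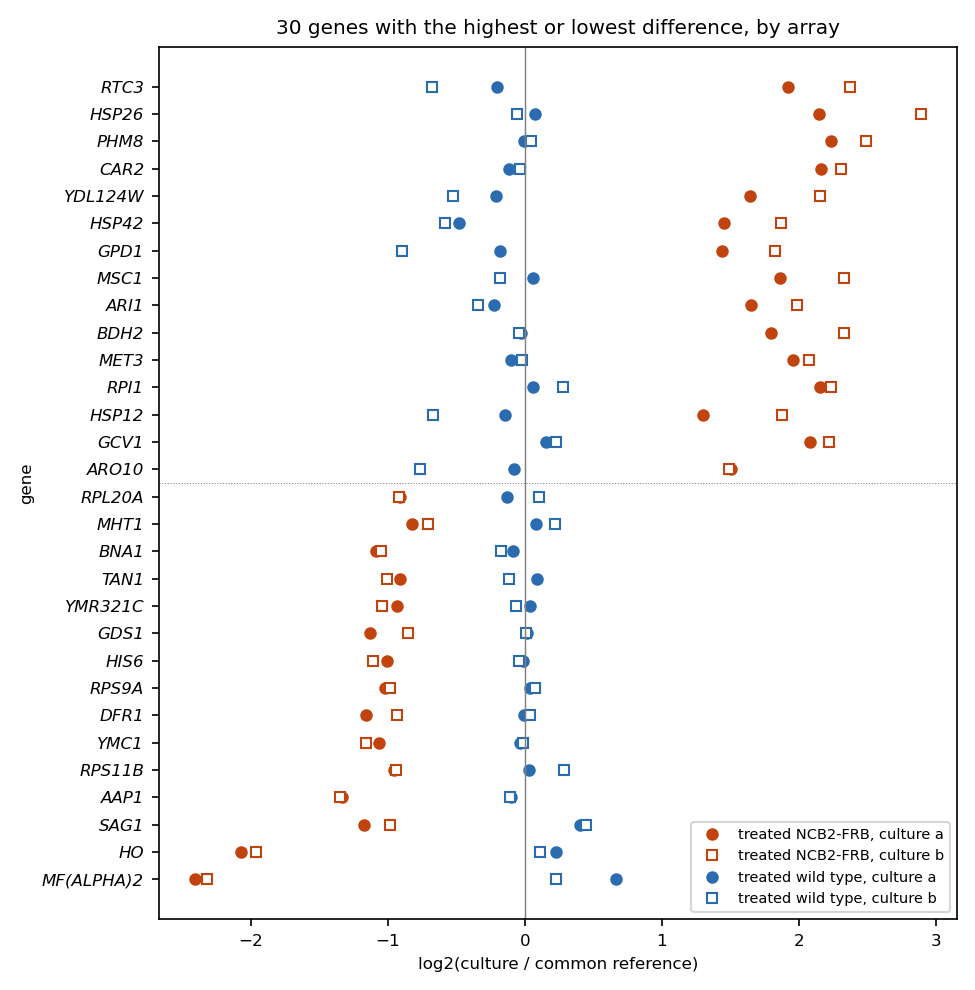
log2(culture/reference) on each of the 4 treated arrays for the 15 genes with the highest and the 15 with the lowest difference that passed the naming rule, filled circles for cultures a and open squares for cultures b. The NCB2-FRB values run from 1.30 to 2.89 in the upper genes and from -2.41 to -0.70 in the lower ones, and no group overlaps the other. The genes were picked for large called differences, so this gives no separate support. For 76.8% of all probes the groups did not overlap.

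Without the drug, NCB2-FRB minus wild type ran from -0.23 to 0.50 for the upper 15 genes and from -0.17 to 0.046 for the lower 15. These genes were picked by their treated difference, which is part of the change of the strain difference, so its tests give no separate support. For all 15 of each set that change passed its test. In the upper set it ran from 1.54 to 2.36, highest for HSP26 (2.36 ± 0.36, adjusted p = 0.000526), followed by CAR2 (2.27), RTC3 (2.24), HSP12 (2.23) and MSC1 (2.22). In the lower set the largest falls were in MF(ALPHA)2 (-2.79 ± 0.24, adjusted p = 1.83e-05), HO (-2.12), SAG1 (-1.34), AAP1 (-1.20) and DFR1 (-1.02). The remaining lower genes of the set were RPS11B, YMC1, RPS9A, HIS6, GDS1, YMR321C, TAN1, BNA1, MHT1 and RPL20A, with falls of 0.90 to 1.11. Over the 43 gene lists the median difference without the drug ran from -0.071 to 0.14, and with it from -0.42 to 1.29.

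Treated Mot1-FRB cultures had 3965 probes called against the same treated wild-type arrays (62.1%), 2011 higher and 1954 lower. The 2 comparisons share those wild-type arrays, so only the direct contrast of the tagged strains is tested here. Side by side, all 15 highest named genes were called higher in treated Mot1-FRB too, and 14 of the 15 lowest were called lower. There 45 of 48 stress probes rose and 0 fell, and of 28 nitrogen catabolite probes 22 and 0 did. For 29 sterol synthesis probes it was 20 and 3, and for 127 ribosomal protein probes 3 and 87. Over all probes 31.5% rose and 30.6% fell in treated Mot1-FRB. Between treated NCB2-FRB and treated Mot1-FRB 1962 probes were called (30.7%), 888 higher in NCB2-FRB (13.9%) and 1074 lower (16.8%). The differences were mostly small, as 22 were at least 1.5-fold higher and 70 at least 1.5-fold lower, and 0 and 12 reached 2-fold. The count rested on the normalization: normexp with global loess called 362 and 436, and median centring 0 and 1. Untreated Mot1-FRB cultures read 1.59 and 2.01 for HSP26 and -0.54 and -0.54 for HO, and the contrast holds the tags of both strains.

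Genes lower in NCB2-FRB than in Mot1-FRB included stress and mating genes. HSP26 read 2.15 and 2.89 in treated NCB2-FRB and 3.89 and 4.54 in treated Mot1-FRB (-1.70 ± 0.25, adjusted p = 0.00107). SSA4 read 0.90 and 1.31 against 2.17 and 2.80 (-1.38 ± 0.18, adjusted p = 0.000499). For both genes NCB2-FRB lay between the wild type and Mot1-FRB. Of the 48 stress probes 0 were higher and 20 lower than in Mot1-FRB, and of 28 sulfate and methionine probes 1 was higher and 17 lower, against 13.9% and 16.8% of all probes. YIR042C, a gene of unknown function, read 1.18 and 1.32 against 2.71 and 2.55 (-1.38 ± 0.15, adjusted p = 0.000253).

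MF(ALPHA)2 read -0.88 and -0.88 in treated Mot1-FRB, and NCB2-FRB minus Mot1-FRB was -1.48 ± 0.17, adjusted p = 0.000307. SAG1 read 0.21 and 0.28 in treated Mot1-FRB, where it was not called against wild type (-0.18 ± 0.085, adjusted p = 0.0866), and the 2 tagged strains differed by -1.32 ± 0.085, adjusted p = 2.94e-05. HO was lower in both, with -1.21 and -1.18 in treated Mot1-FRB and a difference between the tagged strains of -0.82 ± 0.059, adjusted p = 5.46e-05. The tagged genes differed as well, with -0.51 ± 0.072, adjusted p = 0.000854 for MOT1 and -1.19 ± 0.050, adjusted p = 1.78e-06 for NCB2. In treated Mot1-FRB MOT1 read 1.55 and 1.72, and NCB2 read 1.36 and 1.26. In treated NCB2-FRB NCB2 was not called against treated wild type (0.12), so its gap lay in the high Mot1-FRB values. BUR6 (-0.022 ± 0.044, adjusted p = 0.745) and SPT15 (0.084 ± 0.068, adjusted p = 0.376) were not called between the strains.

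Genes higher in NCB2-FRB than in Mot1-FRB had smaller differences. The mitotic cyclin gene CLB2 read 0.88 and 0.75 in treated NCB2-FRB, 0.21 and 0.083 in treated Mot1-FRB and 0.19 and 0.12 in treated wild type (0.66 ± 0.080, adjusted p = 0.000366). FUR4, the uracil permease gene, read 1.03 and 0.91 against 0.28 and 0.20 in Mot1-FRB (0.73 ± 0.068, adjusted p = 0.000133). For these genes the NCB2-FRB cultures stood above all cultures of the other 2 treated groups. OLA1, an ATPase gene, had 0.75 ± 0.096, adjusted p = 0.000476, the meiotic telomere gene NDJ1 0.75 ± 0.11, adjusted p = 0.000778, and the purine synthesis gene ADE8 0.67 ± 0.052, adjusted p = 7.05e-05. Of 32 proteasome probes 12 were higher than in Mot1-FRB and 0 lower, of 51 ribosome assembly probes 19 and 0, and of 23 RNA polymerase I and III probes 11 and 1. Over all probes 13.9% were higher and 16.8% lower, and median centring called 0 and 1 probes in this contrast. The assembly list had a median of -0.22 against wild type in NCB2-FRB and -0.47 in Mot1-FRB.

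**Figure D4:**
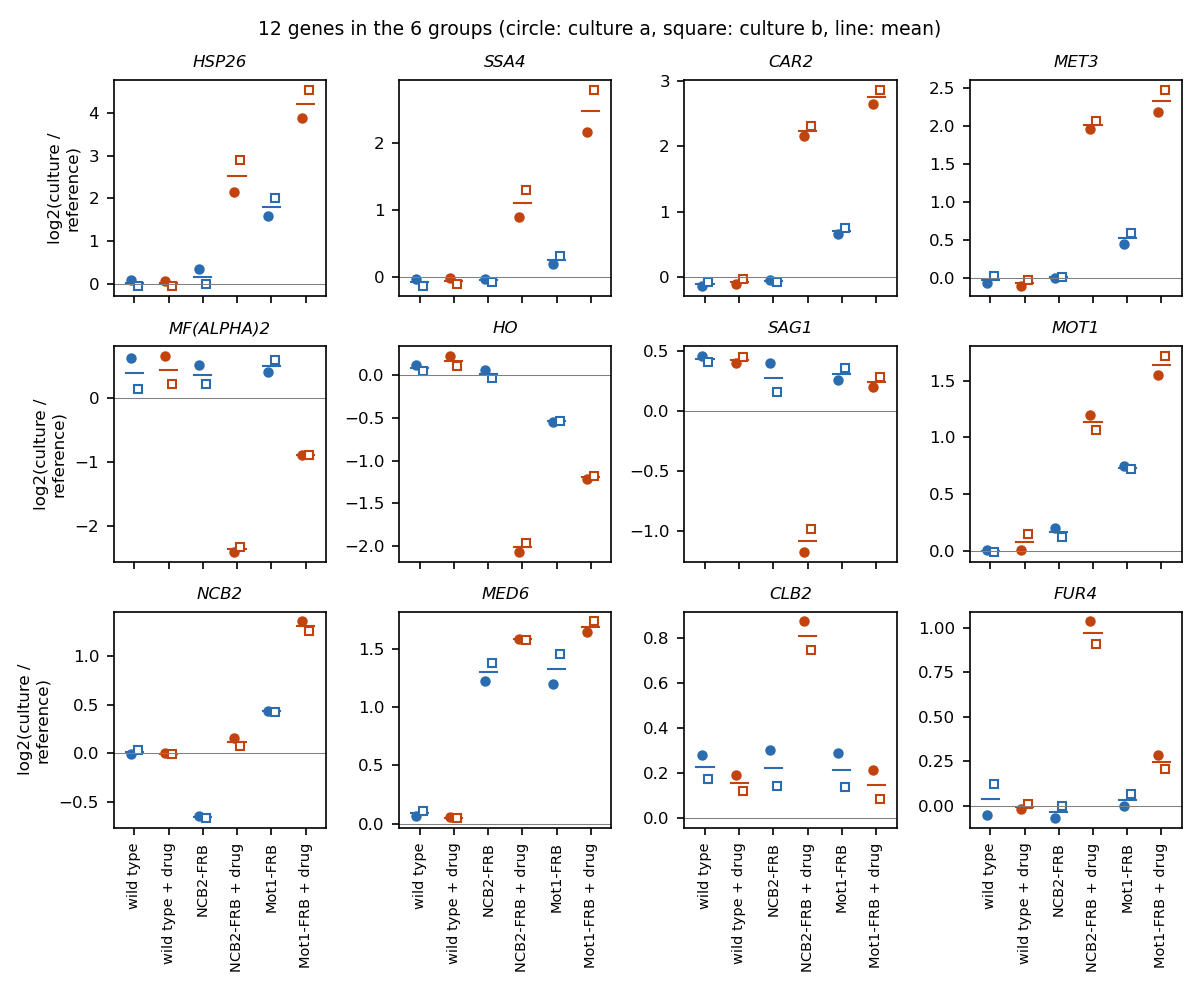
log2(culture/reference) of 12 genes in the 6 groups, with red for rapamycin, blue for none, a circle for culture a, a square for culture b and a line at the mean of the 2. HSP26 and SSA4 are highest in treated Mot1-FRB (HSP26 at 3.89 and 4.54), MF(ALPHA)2, HO and SAG1 are lowest in treated NCB2-FRB, and MED6 is high in every tagged group.

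For the remaining lists the background was again 29.6% higher and 28.5% lower. Of 25 autophagy probes 11 rose and 3 fell (1 without the dim array), of 27 peroxisome probes 10 rose and 6 fell, and of 23 seripauperin and TIR wall probes, which are alike in sequence and may share signal, 12 rose and 2 fell. Of 57 meiosis and sporulation probes 12 rose and 13 fell, of 29 endoplasmic reticulum folding and translocation probes 11 rose and 10 fell, of 17 TOR pathway probes 3 rose and 5 fell, and of 11 retrograde response probes 4 rose and 4 fell. The retrograde median was -0.056 and took values from 0.033 to 0.37 in the normalizations of the scanner intensities.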

How the data were processed

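Transcripts of 12 cultures, 2 in each of 6 groups, were measured on two-colour arrays against a common reference, with the dyes swapped between cultures a and b. The deposited intensity values were extracted with Imagene per the protocol text deposited with the series, and the authors normalized them by print-tip LOESS (span 0.4) without background subtraction and corrected gene-specific dye bias. The deposited log2 values are culture over reference. The 2 spots of each of 6388 gene probes were averaged. Gene symbols (5326 probes) came from the platform annotation, of which 5266 matched current symbols and 58 a synonym. Groups were taken from the labels and fitted in limma 3.58.1 (R 4.3.3) as 1 mean per group over 12 arrays, with Benjamini-Hochberg adjustment over all probes. The labels describe cultures as independent colonies. A self-test on simulated data was run. Dimness was judged against the 95th percentile of blank spots and saturation at 32768. Members and lists were chosen with earlier results of these data known. Named genes were MOT1, NCB2, BUR6 and SPT15, the 15 highest and 15 lowest called genes above the blanks and not saturated on both arrays of a group, up to 4 called genes a list, and the 5 highest and lowest of the other contrasts. Other normalizations, filters, weights, fits and left-out arrays were tried. Figures used matplotlib 3.10.9. No promoter or protein sequence was used here.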

Additional observations from a re-analysis of the deposited data

Results flagged for a closer look

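The strain difference itself depended on the drug at many probes by the test of that change: 1437 moved upward and 1263 downward. Among the named genes the change was 2.36 for HSP26, 2.27 for CAR2, 2.24 for RTC3, 2.23 for HSP12 and 2.22 for MSC1. It was -2.79 for MF(ALPHA)2, -2.12 for HO, -1.34 for SAG1, -1.20 for AAP1 and -1.02 for DFR1. For the genes of TBP and its regulators it was 0.89 for MOT1, 0.78 for NCB2, 0.41 for SPT15 and 0.29 for BUR6, and for MED6 it was 0.31.

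The treated tagged strains differed from each other by the direct contrast, with 888 probes higher and 1074 lower in NCB2-FRB than in Mot1-FRB. The difference was 0.75 for OLA1, 0.75 for NDJ1, 0.73 for FUR4, 0.67 for ADE8 and 0.66 for CLB2. It was -1.70 for HSP26, -1.48 for MF(ALPHA)2, -1.38 for YIR042C, -1.38 for SSA4 and -1.32 for SAG1. The tagged genes differed by -0.51 for MOT1 and -1.19 for NCB2, and treated Mot1-FRB lay above treated wild type for both (1.56 and 1.31).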

How the results depend on the processing

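With normexp and global loess of the scanner intensities 1508 probes were higher and 1157 lower in treated NCB2-FRB, the untreated strains had 1 call, the drug-dependent calls were 952 upward and 544 downward, and NCB2-FRB against Mot1-FRB gave 362 and 436. Print-tip loess without background subtraction gave 710 downward drug-dependent calls and 539 and 625 between the tagged strains. Median centring gave 504 and 235, 1 untreated call, 24 and 3 drug-dependent calls, and 0 and 1 between the tagged strains. Centring on external controls gave 618 lower than in Mot1-FRB, and keeping probes above the blanks gave 1254 higher than in wild type by testing fewer probes. The signs of CYS4 (0.096 with normexp and loess, 0.031 with print-tip loess, 0.019 with median centring), CHO2 (0.053 with print-tip loess, 0.20 with median centring), TYS1 (0.021) and TOA1 (0.067), the last 2 with median centring, turned, and the cause was not tested.

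Leaving out 1 array in turn gave 1611 to 1859 higher and 1510 to 1640 lower in treated NCB2-FRB, 2 to 4 untreated calls (4 without untreated wild type a), 1228 to 1487 and 1011 to 1191 drug-dependent calls, and 623 to 742 and 593 to 966 between the tagged strains (593 without treated Mot1-FRB b). With the replicate block as well the ranges were 1748 to 1913 and 1665 to 1748, 2 to 4, 1370 to 1580 and 1151 to 1358, and 689 to 845 and 720 to 1035. The untreated count was 4 without untreated NCB2-FRB b.

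The letters a and b give dye orientation, and over 15 pairs of groups the deviations of same-lettered cultures correlated from 0.011 to 0.55 (median 0.13, 9 over 0.1), with 0.082 for the treated groups compared, so not every pair was over 0.1 and the letters were not taken to pair the samples, although they share a dye orientation. The replicate block gave 2028 higher and 1975 lower calls, 1587 and 1433 drug-dependent calls, and 1102 and 1252 between the tagged strains, and it called NCB2. A filter on saturated probes, chosen after seeing the data, gave 1880 and 1755. Of 189 called named genes 91 kept their call in all 17 settings, 96 lost it with median centring and 36 with another setting, 12 of them without the dim array. Dim signal on that array and 2 arrays per group limit the precision, and a change common to all transcripts would not be seen.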
